A study of Homo sapiens with 12 samples.

Results

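The 8 genes SEC11A, UBE2L6, NGDN, NEK9, DCTPP1, TM2D1, STX12 and CRTC1, are described in K562 cells in which a long non-coding RNA (lncRNA) was targeted by a small interfering RNA (siRNA) together with a GapmeR. They were picked from earlier results on the same libraries because their RNA was higher with the targeted transfection, in the comparison of SG with control or of TNFSG with TNF, and no numeric limit for the rise is stated. Each gene is the locus that carries its symbol, and where several loci do, the one with the highest mean over the libraries. The 8 genes are 8 of 38272 loci in the table, and all 8 passed the filter on low values with at least 5.002 FPKM in each of the 12 libraries. FPKM is the number of sequenced fragments divided by the length of the locus and by the number of fragments mapped in the library. Because the 8 genes were chosen on the 2 comparisons of targeted with mock transfection, their differences in those comparisons are given as a description, without a test.

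K562 is a chronic myeloid leukaemia cell line, and it gave 12 libraries, 3 biological replicates by label in each of 4 groups. Control cells were transfected with a control siRNA and a control GapmeR (mock transfection), and the TNF group received the same transfection and then 6 hours of 20 ng/mL TNF (tumour necrosis factor alpha). The SG group received the siRNA Si623 and the GapmeR Gap01, and the TNFSG group received them followed by the same TNF treatment. All groups therefore share K562 as their only cell line and a transfection with both kinds of oligonucleotide, so the siRNA and the GapmeR cannot be told apart here. Whether replicates were separate cultures is not stated beyond the label, so p-values measure the spread between these samples. In bulk RNA, a change in the share of cells that express a gene and a change in RNA per cell cannot be told apart.

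A GapmeR is an antisense oligonucleotide with a DNA core that directs RNase H to the RNA it binds, while an siRNA directs cleavage by the RNA-induced silencing complex. The 8 genes belong to different cell functions. SEC11A cuts signal peptides from proteins entering the endoplasmic reticulum, and STX12 is a membrane fusion protein of recycling endosomes. UBE2L6 passes the ubiquitin-like protein ISG15 to its targets, NGDN belongs to the machinery that assembles the small ribosomal subunit, and NEK9 is a kinase of mitotic spindle assembly. DCTPP1 hydrolyses dCTP, TM2D1 is a membrane protein that binds amyloid beta peptide, and CRTC1 is a coactivator of the cAMP-responsive transcription factor CREB.

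The labels were checked on other loci first. The lncRNA is called PPTG1-1:1 in the series title, and it was not matched to a locus by that name. The locus named MIR146A had 0.360, 0.569 and 0.159 FPKM in the control libraries, 28.1, 25.6 and 21.2 in the TNF libraries, 0, 0.0566 and 0.0630 in the SG libraries and 7.77, 4.51 and 4.03 in the TNFSG libraries. ICAM1, an adhesion molecule induced by TNF, had means of 15.1 FPKM in control and 339 in TNF, and 16.0 in SG and 361 in TNFSG. Relative depth, read from the steps between low values, lay between 0.880 and 1.346 across libraries, and the absolute depth is unknown. The median FPKM of a library lay between 1.788 and 2.00 in the 6 mock libraries and between 2.122 and 2.357 in the 6 targeted libraries, without overlap. All 10 erythroid markers expected of K562 had a locus, with means from 1.42 to 2183 FPKM, and none of the 3 endothelial markers did. Of the lymphoid markers 3 of 5 had a locus (means from 0.980 to 25.1 FPKM). So did 3 of 4 fibroblast markers (3.41 to 138 FPKM) and 3 of 3 epithelial markers (0.913 to 58.6 FPKM). A name missing from the table does not show that a gene was silent.

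The sequences shown here are a microRNA from the MIR146A locus, the matches to its seed in the 8 genes, and 3 promoters. At that locus control and SG were both near 0, with means of 0.363 and 0.04 FPKM (limma, Benjamini-Hochberg adjusted p = 0.628). TNFSG lay below TNF, at 5.44 against 25.0 FPKM (limma adjusted p = 0.0191). These values are of the locus rather than of the mature microRNA, and a link to the 8 genes was not tested. The mature miR-146a-5p is encoded at chr5:160485372-160485393 on the plus strand (RefSeq, GRCh38.p14), and the capitals mark its seed, bases 2 to 8.
hsa-miR-146a-5p: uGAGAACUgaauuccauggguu
The letters that pair with this seed, AGTTCTC, were searched in the 3' untranslated regions of GENCODE release 29. They occurred in 2 of the 8 genes (25.0%), and in 1289 of 9822 protein-coding genes with a mean of at least 5 FPKM (13.1%). The median 3' untranslated region was 1689 bases in the 8 genes and 1350 bases in the larger set. Both sites are shown on the transcript strand (minus) with the seed match in capitals, SEC11A at chr15:84670058-84670064 and UBE2L6 at chr11:57552073-57552079.
SEC11A site: tttaagtatgcAGTTCTCttttt
UBE2L6 site: agttacaggccAGTTCTCcagct
The SEC11A site lay in 1 of the 6 coding transcripts of the gene (ENST00000560266.5), and the UBE2L6 site in both of its coding transcripts. A match of letters does not show that a site is used, and this search was added after the values had been seen.

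Promoter windows of 300 bases, 250 before to 50 after the annotated start (RefSeq, GRCh38.p14), were found for all 8 genes, with UBE2L6 having 2, and 35116 windows were searched in all on both strands. The cAMP response element TGACGTCA occurred in 1 of the 9 windows, that of STX12, and in 1.85% of all windows. The core CGGAAG of sites for ETS transcription factors occurred in 5 of the 9 windows (SEC11A, UBE2L6, NGDN, TM2D1 and STX12), and in 19.5% of all windows. The ETS core was chosen after the sequences had been seen. The E-box CACGTG occurred in the DCTPP1 window alone of the 9, and in 7.26% of all windows. The NF-kB motif, searched by name, and the repeat GAAANNGAA of the interferon-stimulated response element were in none of the 9 windows, and in 11.3% and 8.11% of all windows. Matches of different motifs were counted whether or not they overlapped. The stretches below lie outside annotated exons, with the motif in capitals, and are shown because they hold the rarest motif (STX12) and the shared one (NGDN and UBE2L6). STX12 is at chr1:27772969-27773118 on the plus strand with the element starting 194 bases before the gene start. NGDN is at chr14:23469523-23469672 on the plus strand. UBE2L6 is at chr11:57567808-57567848 on the minus strand, where the core reads CTTCCG because it lies on the opposite strand. This UBE2L6 stretch lies before 1 of its 2 RefSeq starts but inside the GENCODE span of the gene (chr11:57551656-57568284). Of the 250 bases before that start, 209 are in annotated exons.
STX12 promoter: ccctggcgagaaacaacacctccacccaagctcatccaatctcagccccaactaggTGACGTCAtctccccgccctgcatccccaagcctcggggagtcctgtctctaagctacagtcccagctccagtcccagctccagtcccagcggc
NGDN promoter: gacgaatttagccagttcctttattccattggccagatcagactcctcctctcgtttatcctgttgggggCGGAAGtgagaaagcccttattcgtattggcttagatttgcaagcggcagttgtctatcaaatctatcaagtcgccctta
UBE2L6 promoter: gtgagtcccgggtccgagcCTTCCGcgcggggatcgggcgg

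All 8 genes were higher in SG than in control and in TNFSG than in TNF, and for each gene the 3 targeted libraries lay above the 3 mock libraries in both comparisons. Of all loci tested, 10.3% lay higher without overlap between control and SG, 10.0% between TNF and TNFSG and 2.82% in both pairs. SEC11A stood out by level, at a mean of 95.9 FPKM in control, and UBE2L6 by ratio, at 2.08 times its control mean. The smallest ratio was that of DCTPP1 between control and SG (1.36) and that of NEK9 between TNF and TNFSG (1.43). The values in each library follow in the order of replicates 1 to 3.

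**Figure D1:**
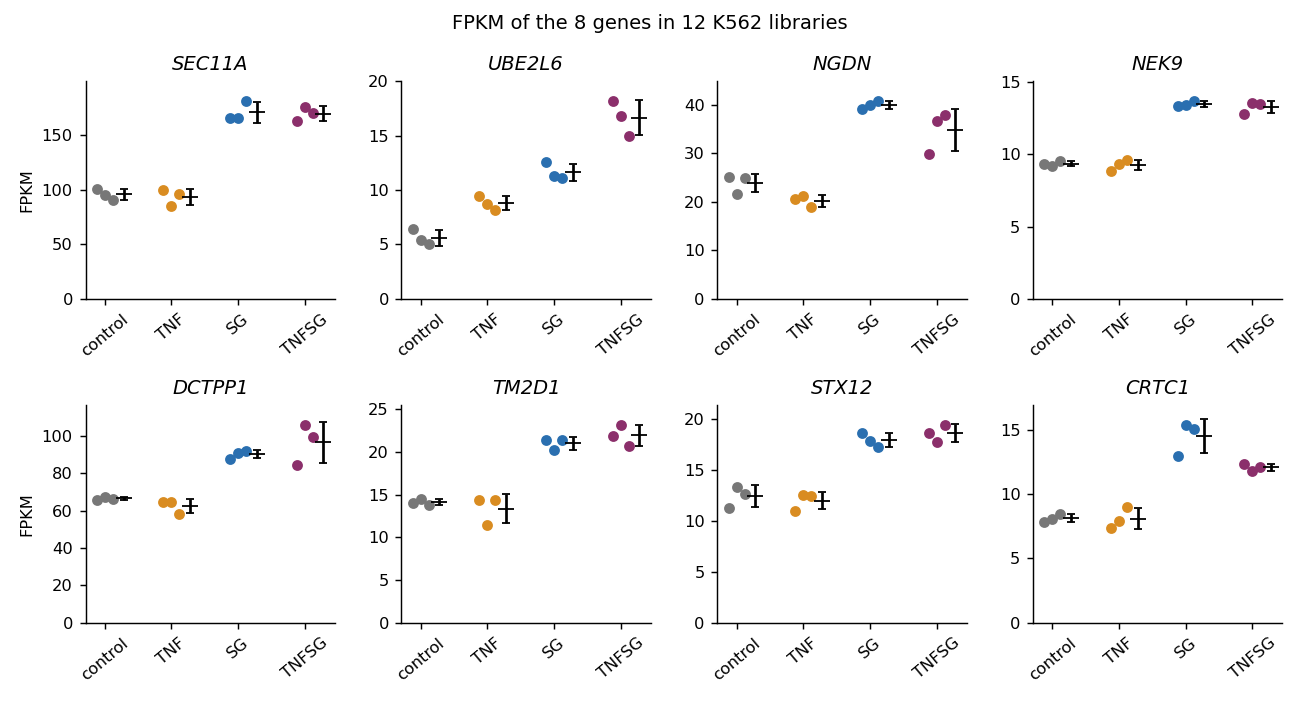
FPKM (vertical axes, each from 0) of the 8 genes in the 12 libraries; coloured points are libraries of the control, TNF, SG and TNFSG groups, and the black mark beside each group is its mean with the SD as a bar (n = 3). In every panel the 6 targeted libraries lie above the 6 mock libraries they are compared with, and in the UBE2L6 panel the TNF-treated groups also lie above their untreated groups.

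SEC11A (chr15:84669538-84716716, minus strand, GENCODE release 29 on GRCh38) had 101, 95.7 and 90.7 FPKM in control and 166, 166 and 182 in SG. It had 99.6, 85.2 and 96.2 FPKM in TNF and 163, 176 and 170.5 in TNFSG. The 6 targeted libraries lay between 163 and 182 FPKM and the 6 mock libraries between 85.2 and 101. The mean went from 95.9 ± 5.32 FPKM (SD, n = 3) in control to 171 ± 9.26 in SG, and from 93.7 ± 7.56 in TNF to 170.1 ± 6.58 in TNFSG. On the log2(FPKM + 1) scale these are differences of 0.83 ± 0.08 (SE), or 1.78-fold, and 0.86 ± 0.08, or 1.82-fold. SEC11A is one of a pair of alternative catalytic subunits of the signal peptidase complex, and the other, SEC11C, had means of 62.1 ± 5.63 FPKM in control, 73.1 ± 4.28 in SG, 62.3 ± 10.3 in TNF and 74.8 ± 6.64 in TNFSG. SEC11C was higher without overlap in both comparisons and passed the limma test in neither (Benjamini-Hochberg adjusted p = 0.596 and 0.569).

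UBE2L6 (chr11:57551656-57568284, minus strand) had 6.395, 5.41 and 5.002 FPKM in control and 12.6, 11.3 and 11.1 in SG. It had 9.47, 8.73 and 8.20 FPKM in TNF and 18.2, 16.8 and 14.9 in TNFSG. The 4 groups did not overlap, with control lowest, then TNF, SG and TNFSG. Group means were 5.60 ± 0.717 FPKM in control, 11.6 ± 0.805 in SG, 8.80 ± 0.641 in TNF and 16.7 ± 1.63 in TNFSG (SD, n = 3). The targeted transfection differed from mock by 0.94 ± 0.11 log2 units (SE), or 2.08-fold, without TNF, and by 0.85 ± 0.11, or 1.89-fold, with TNF. Its closest relative UBE2L3, a ubiquitin-conjugating enzyme, was far more abundant, with means of 220.7 ± 5.08 FPKM in control and 233 ± 5.56 in SG.

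NGDN (chr14:23469688-23509862, plus strand) had 25.1, 21.7 and 25.0 FPKM in control and 39.3, 39.955 and 40.9 in SG. It had 20.6, 21.3 and 18.9 FPKM in TNF and 29.8, 36.7 and 38.0 in TNFSG. The TNFSG libraries were the most scattered, and the lowest of them still lay above all 6 mock libraries. Means were 23.9 ± 1.92 FPKM in control, 40.02 ± 0.796 in SG, 20.3 ± 1.23 in TNF and 34.8 ± 4.38 in TNFSG. The targeted transfection differed from mock by 0.72 ± 0.10 log2 units (1.67-fold) and by 0.75 ± 0.10 (1.72-fold) without and with TNF.

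NEK9 (chr14:75079353-75127344, minus strand) had 9.30, 9.19 and 9.55 FPKM in control and 13.3, 13.4 and 13.7 in SG. It had 8.87, 9.31 and 9.60 FPKM in TNF and 12.8, 13.5 and 13.5 in TNFSG. NEK9 was the least variable of the 8 genes, with a residual SD of 0.04 log2 units, and no mock library reached 10 FPKM. The differences were 0.49 ± 0.07 log2 units (1.44-fold) without TNF and 0.48 ± 0.07 (1.43-fold) with TNF. The last 635 bases of NEK9's span, at its 3' end, overlap ZC2HC1C on the opposite strand. ZC2HC1C has a locus of its own with a mean of 7.58 FPKM. Its differences were 0.23 ± 0.20 and 0.13 ± 0.20 log2 units without and with TNF (limma adjusted p = 0.772 and 0.906).

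DCTPP1 (chr16:30423619-30430075, minus strand) had 65.6, 67.6 and 66.5 FPKM in control and 87.9, 91.2 and 92.2 in SG. It had 64.8, 64.6 and 58.3 FPKM in TNF and 84.4, 106 and 99.3 in TNFSG. The SG libraries lay close together, while the TNFSG libraries spread from below to above them. Means were 66.6 ± 1.00 FPKM in control, 90.4 ± 2.25 in SG, 62.6 ± 3.72 in TNF and 96.6 ± 11.1 in TNFSG. The differences were 0.44 ± 0.08 log2 units (1.36-fold) without TNF and 0.61 ± 0.08 (1.54-fold) with TNF. All 6457 bases of DCTPP1 lie within the span of ZNF771 on the opposite strand, and whether counting used the strand is not stated in these sources. The ZNF771 locus had a mean of 10.4 FPKM and differed by -0.03 ± 0.25 log2 units (SE) in SG against control and by 0.32 ± 0.25 in TNFSG against TNF (limma adjusted p = 0.981 and 0.770).

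TM2D1 (chr1:61681046-61725423, minus strand) had 14.03, 14.5 and 13.8 FPKM in control and 21.4, 20.2 and 21.4 in SG. It had 14.3, 11.4 and 14.4 FPKM in TNF and 21.9, 23.2 and 20.8 in TNFSG. TNF replicate 2 was the lowest of the 12 libraries, and without it the difference of TNFSG from TNF was 0.58 rather than 0.68 ± 0.09 log2 units (1.64-fold). The difference of SG from control was 0.54 ± 0.09 log2 units (1.49-fold). The family members TM2D2 and TM2D3 overlapped between mock and targeted libraries, with means of 30.1 and 24.7 FPKM in control and 28.7 and 17.6 in SG.

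STX12 (chr1:27773183-27824452, plus strand) had 11.2, 13.4 and 12.7 FPKM in control and 18.7, 17.9 and 17.3 in SG. It had 11.01, 12.6 and 12.4 FPKM in TNF and 18.7, 17.7 and 19.5 in TNFSG. Replicate 1 was the lowest library in both mock groups and was not low in the targeted groups. The differences were 0.50 ± 0.09 log2 units (1.44-fold) without TNF and 0.60 ± 0.09 (1.55-fold) with TNF. A second locus with this symbol ranged from 2.43 to 5.88 FPKM with a mean of 3.75, and its groups overlapped. STX7, a syntaxin of late endosomes, had means of 25.1 ± 0.540 FPKM in control and 29.2 ± 0.574 in SG, a difference of 0.21 log2 units that did not pass the limma test (adjusted p = 0.496).

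CRTC1 (chr19:18683677-18782333, plus strand) had 7.87, 8.06 and 8.50 FPKM in control and 13.0, 15.4 and 15.1 in SG. It had 7.35, 7.96 and 9.04 FPKM in TNF and 12.4, 11.8 and 12.1 in TNFSG. All 3 TNFSG libraries lay below all 3 SG libraries, while control and TNF overlapped. Means were 8.14 ± 0.323 FPKM in control, 14.5 ± 1.31 in SG, 8.12 ± 0.856 in TNF and 12.1 ± 0.272 in TNFSG. The differences were 0.76 ± 0.10 log2 units (1.78-fold) without TNF and 0.53 ± 0.10 (1.49-fold) with TNF. A second CRTC1 locus ranged from 0 to 5.38 FPKM with a mean of 1.89. The other coactivators of the family, CRTC2 and CRTC3, had means of 15.4 and 22.7 FPKM in control and 16.0 and 18.3 in SG, and their groups overlapped.

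Across the 8 genes, the difference of SG from control ranged from 0.44 to 0.94 log2 units with a median of 0.63, and that of TNFSG from TNF from 0.48 to 0.86 with a median of 0.65. The median over all 32866 loci tested was 0.08 in each comparison, and it moved to -0.03 in each after quantile normalization, a shift above 0.1. Relative to that median, the 8 genes differed by 0.35 to 0.86 log2 units in SG against control as deposited and by 0.39 to 0.81 after quantile normalization. In TNFSG against TNF the same ranges were 0.40 to 0.78 and 0.42 to 0.85. Over the whole table, 18 loci (0.0548%) passed the limma test as higher in SG against control, of 56 (0.17%) in either direction. In the comparison of TNFSG with TNF, 19 loci (0.0578%) passed as higher, of 42 (0.128%) in either direction. Together 31 loci (0.0943%) passed as higher in at least 1 of the comparisons and 6 (0.0183%) in both. These limma calls depend on single libraries: with each of the 12 left out in turn, 3 to 13 loci passed as higher between control and SG (fewest without control replicate 3 or SG replicate 2), and 0 to 11 between TNF and TNFSG (fewest without TNFSG replicate 2). These counts over the whole table include loci of the 8 genes. No call is given for the 8 genes on their own, since they were picked on these comparisons. HIST1H3H, a histone gene outside the 8, lay within their range, with differences of 0.69 and 0.56 log2 units.

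**Figure D2:**
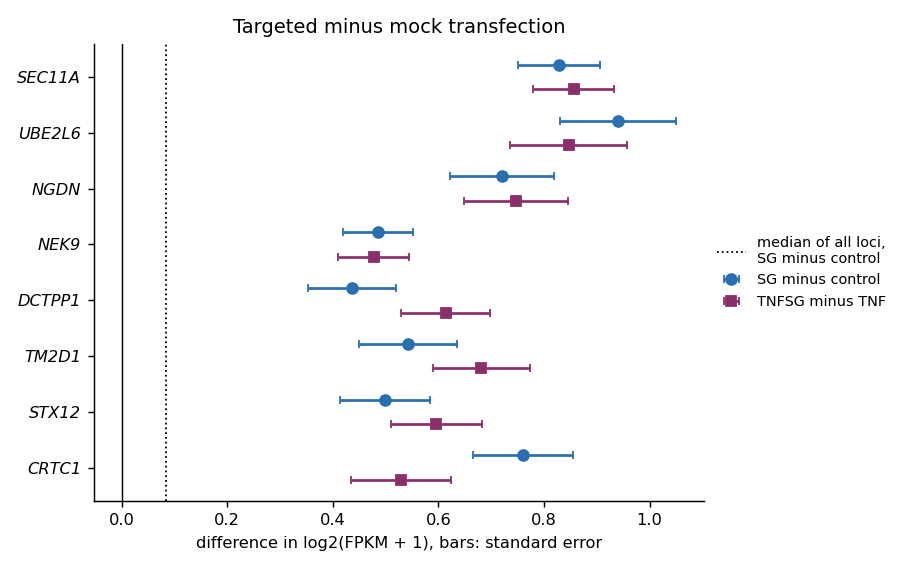
Difference between targeted and mock transfection on the log2(FPKM + 1) scale (horizontal axis) for each of the 8 genes, without TNF (blue circles) and with TNF (purple squares); bars are standard errors from the limma fit over 12 libraries. All 16 points lie between 0.44 and 0.94, to the right of the dotted line at 0.08, the median of all loci in SG against control.

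The size of the difference without and with TNF was compared through the interaction, the difference of TNFSG from TNF minus that of SG from control, which is given as a value because both of its parts picked the genes. It ranged from -0.23 in CRTC1 (95% interval -0.53 to 0.07) to 0.18 in DCTPP1 (-0.09 to 0.44). In SEC11A it was 0.03 (-0.22 to 0.27), in UBE2L6 -0.09 (-0.44 to 0.26), in NGDN 0.03 (-0.29 to 0.34) and in NEK9 -0.01 (-0.22 to 0.20). In TM2D1 it was 0.14 (-0.15 to 0.43) and in STX12 0.10 (-0.17 to 0.37). All 8 intervals span 0, and the widest reach, in CRTC1, extended to -0.53 log2 units. Over the whole table, 3 loci (0.00913%) passed the limma test of the interaction.

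TNF itself was tested in a contrast on which the genes were not picked, the TNF-treated groups (TNF and TNFSG) against the untreated groups (control and SG). Its p-values rest on the same estimate of spread as the comparisons that picked the genes, so they are not fully separate from the selection. UBE2L6 rose with TNF and was the only one of the 8 genes to pass, against 4.38% of all loci tested that passed, 2.84% as higher and 1.55% as lower. Its mean was 1.57 times control in TNF and 1.43 times SG in TNFSG, with no overlap in either pair, so all 6 TNF-treated libraries lay above their untreated group. The share of all loci without overlap in these pairs was not counted. The averaged difference was 0.53 ± 0.08 log2 units (95% interval 0.35 to 0.70, limma adjusted p = 0.00442). Summed fibroblast markers lay at 21.4 to 56.3 FPKM in the untreated libraries and 55.1 to 1178 in the TNF-treated ones, so these ranges overlapped. The sum is over 3 of 4 markers with a locus, none at 0 throughout, with means from 3.41 to 138 FPKM. Which marker carried it is not given, and the part of these markers in the result was not tested. Summed epithelial markers (3 of 3 with a locus) were 61.7 to 71.3 FPKM in the untreated and 54.3 to 74.4 FPKM in the TNF-treated libraries.

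NGDN had the next largest difference with TNF, -0.22 ± 0.07 log2 units (95% interval -0.37 to -0.06), which did not pass after adjustment (limma adjusted p = 0.145). Its TNF mean was 0.846 times control and its TNFSG mean 0.870 times SG, without overlap in the first pair or the second (share of all loci not counted). CRTC1 differed by -0.12 ± 0.07 log2 units (-0.27 to 0.03, limma adjusted p = 0.430), with TNFSG at 0.835 times SG, without overlap, and TNF at 0.997 times control. For the other 5 genes the averaged difference lay between -0.02 and 0.00 log2 units, and limma adjusted p lay between 0.902 and 1.00. The intervals for these 5 reached at most 0.16 log2 units from 0, as in TM2D1 (-0.16 to 0.14). Among them, DCTPP1 lay lower without overlap in TNF, at 0.940 times control, and overlapped between SG and TNFSG, at 1.07 times SG. The median difference with TNF was -0.01 over the 8 genes and -0.03 over all loci tested.

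**Figure D3:**
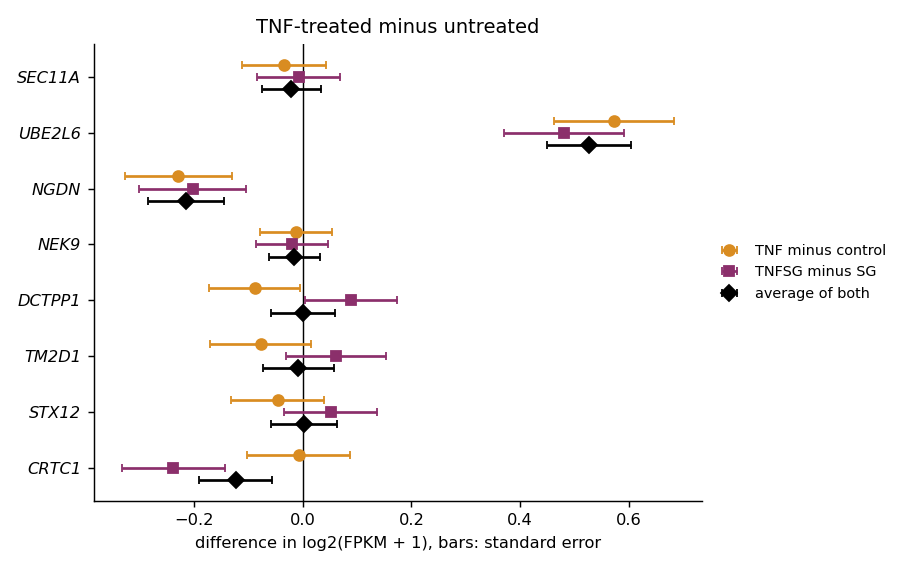
Difference between TNF-treated and untreated groups on the log2(FPKM + 1) scale (horizontal axis) for each of the 8 genes, in mock-transfected cells (orange circles), in targeted cells (purple squares) and averaged over both (black diamonds); bars are standard errors from the limma fit. UBE2L6 lies to the right of 0 at 0.53 on average, NGDN to the left at -0.22, and CRTC1 at -0.12, while the averages of the other 5 genes lie close to 0.

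The genes that work with each of the 8 were followed through 9 lists, none of which holds a member. Where a count at an unadjusted p under 0.05 is given, the share of all loci at that limit was not counted. Such a count therefore cannot show whether a list exceeds that share. In the signal peptidase and translocation list around SEC11A, 0 of 22 genes passed the limma test in any of the 3 comparisons (unadjusted p was under 0.05 for 2 between control and SG, 2 between TNF and TNFSG and 5 with TNF averaged). The accessory subunits of the signal peptidase overlapped between groups: SPCS1 had means of 58.3 FPKM in control and 60.8 in SG, SPCS2 had 38.8 and 36.3, and SPCS3 had 41.0 and 40.2. The median of the list was -0.01 log2 units in SG against control and 0.03 in TNFSG against TNF, beside 0.08 for all loci. The ISG15 list around UBE2L6 had 0 of 7 genes past the limma test in each comparison (0, 1 and 1 at an unadjusted p under 0.05). ISG15 itself had means of 13.8 ± 4.08 FPKM in control, 13.6 ± 2.83 in SG, 19.1 ± 7.21 in TNF and 19.1 ± 3.62 in TNFSG. Here SPCS1, SPCS2, SPCS3 and ISG15 were named after their values were seen.

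In the small-subunit processome list around NGDN, 2 of 28 genes fell in SG against control and in TNFSG against TNF and none rose, opposite to NGDN. They were HEATR1 and UTP6, which act early in processing of the ribosomal RNA precursor, and the share of all loci that passed as lower was 0.116% and 0.07%. HEATR1 went from 53.3 ± 4.02 FPKM in control to 27.0 ± 2.28 in SG, a difference of -0.95 log2 units (limma adjusted p = 0.0143), and from 41.5 ± 5.15 in TNF to 23.2 ± 1.37 in TNFSG (-0.81, adjusted p = 0.0335). UTP6 went from 65.9 ± 3.94 to 40.9 ± 3.56 FPKM without TNF (-0.68, limma adjusted p = 0.0190) and from 56.2 ± 2.97 to 34.5 ± 1.66 with TNF (-0.69, adjusted p = 0.0219). Over 12 fits, each without 1 library, the calls held for HEATR1 in 8 and 1, and for UTP6 in 7 and 5, without and with TNF in that order. With TNF, 7 of the 28 fell (MPHOSPH10, IMP4, UTP14A, UTP15, WDR43, WDR36 and WDR3), against 1.55% of all loci, and the list median was -0.23 log2 units, near the -0.22 of NGDN. WDR3 fell most, by 0.64 log2 units (limma adjusted p = 0.00534), from 41.4 FPKM in control to 26.2 in TNF and from 39.3 in SG to 25.1 in TNFSG. MPHOSPH10, UTP15 and WDR3 kept their call with each library left out, while WDR36 and WDR43 kept it in 6 of 12 such fits and IMP4 and UTP14A in 3 of 12.

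Around NEK9, 1 of 11 genes fell in SG against control (0.116% of all loci did), BICD2, an adaptor of the motor dynein, from 15.3 ± 1.26 to 9.88 ± 0.597 FPKM (-0.58 log2 units, limma adjusted p = 0.0418), and its call was lost whichever library was left out. In TNFSG against TNF no gene of this list passed (6 of 11 had an unadjusted p under 0.05), and BICD2 had a difference of -0.55 (limma adjusted p = 0.0603). NEK7, a kinase activated by NEK9, rose with TNF by 0.45 log2 units (limma adjusted p = 0.0152), with means of 14.9 FPKM in control, 9.83 in SG, 20.2 in TNF and 14.1 in TNFSG. The medians of this list were -0.16 and -0.17 log2 units in the comparisons of targeted with mock transfection. In the deoxynucleotide list around DCTPP1, 0 of 17 genes passed in any comparison, while 8, 7 and 1 had an unadjusted limma p under 0.05 (share of all loci not counted). The genes of this list lay on both sides of 0. Their differences ranged from -0.49 to 0.45 log2 units in SG against control, with a median of 0.04. In TNFSG against TNF they ranged from -0.42 to 0.49, with a median of -0.03. In the TM2D and amyloid precursor list, 0 of 10 passed in the comparisons of targeted with mock transfection (2 and 0 at an unadjusted p under 0.05). APP, the amyloid precursor, rose with TNF by 0.73 log2 units (limma adjusted p = 0.0159).

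In the endosomal SNARE list around STX12, 1 of 30 genes passed in TNFSG against TNF (0.07% of all loci passed as lower), STX6, a syntaxin of the trans-Golgi network, which fell from 19.8 ± 1.21 to 11.9 ± 1.18 FPKM (-0.69 log2 units, limma adjusted p = 0.0409). In SG against control the difference of STX6 was -0.51 (limma adjusted p = 0.120), no gene of the list passed, and 9 of 30 had an unadjusted p under 0.05. The call of STX6 was lost whichever of the 12 libraries was left out. BLOC1S5, a subunit of a complex that sorts cargo from endosomes, fell with TNF by 0.23 log2 units (limma adjusted p = 0.0242), and this held in 5 of the 12 leave-one-out fits. Of the 14 CRTC and CREB factors and the 8 tested CREB target genes, 0 passed in the comparisons of targeted with mock transfection (2 and 0, and 0 and 0, at an unadjusted p under 0.05). CREB1, the factor that CRTC1 binds, had means of 6.24 ± 0.363 FPKM in control and 6.37 ± 0.307 in SG, and rose with TNF to 8.96 ± 1.13 and 9.37 ± 0.0502 (0.47 log2 units averaged, limma adjusted p = 0.00424). NR4A3, a target of CREB, rose with TNF by 1.37 log2 units (limma adjusted p = 0.00176), from 0.0657 to 1.66 FPKM without and from 0.0833 to 2.03 FPKM with the targeted transfection.

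**Figure D4:**
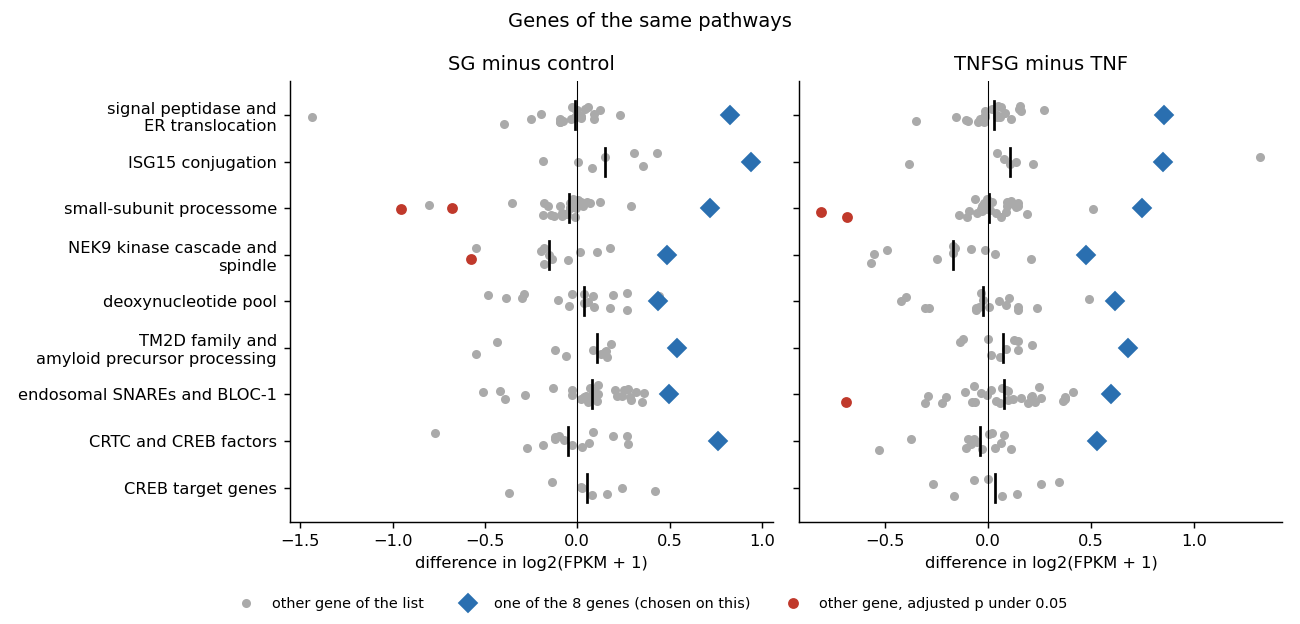
Differences on the log2(FPKM + 1) scale (horizontal axes) of genes from 9 lists in SG against control (left) and TNFSG against TNF (right); blue diamonds are the 8 genes, picked on these differences, grey points are other genes of the list, red points those with a limma adjusted p under 0.05, and black bars are list medians without the diamond. The list medians lie between -0.17 and 0.15, and each red point lies to the left of 0.

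The pattern over libraries was compared with that of 12613 loci with a mean of at least 5 FPKM, through Pearson's r over the 12 libraries with the mean of the 8 standardised profiles. These r values are a description, because 12 libraries in 4 groups share their group means and the 8 genes were picked for those means. The named loci most like the profile were COMMD7 (r = 0.966), HIST1H3H (0.963), MAGEC2 (0.963), DUT (0.959) and C14orf159 (0.957). DUT, which hydrolyses dUTP and belongs to the deoxynucleotide list of DCTPP1, had means of 72.4 ± 6.61 FPKM in control, 98.8 ± 4.72 in SG, 70.7 ± 3.96 in TNF and 99.6 ± 2.78 in TNFSG, and its targeted libraries lay above its mock libraries in both pairs. DUT was also the locus most like SEC11A alone (r = 0.976), followed by CH507-154B10.2 (0.971) and the locus shared by GCSHP3 and NDUFS1 (0.960). The most opposite loci were MFN1 (r = -0.99), which fuses mitochondria, MED1 (-0.988), a subunit of the Mediator complex, and the locus shared by DNAJC25 and GNG10 (-0.98). MED1 had means of 31.0 and 28.7 FPKM in control and TNF and 15.6 and 14.3 in SG and TNFSG.

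**Figure D5:**
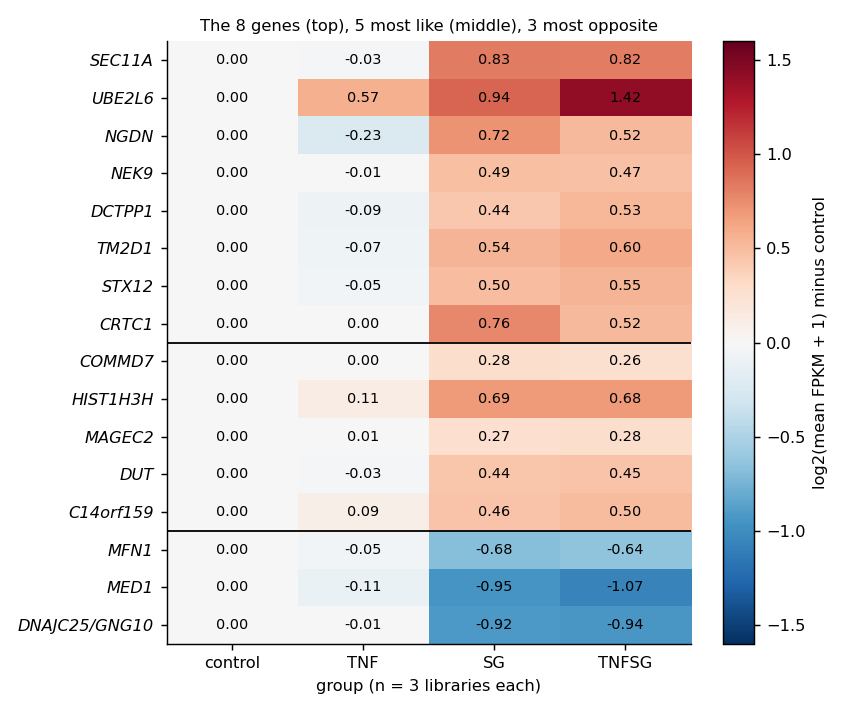
Group means as log2(mean FPKM + 1) minus the control group (colour and printed value, n = 3 libraries per group) for the 8 genes, the 5 loci most like their mean profile and the 3 most opposite to it. The TNF column stays between -0.23 and 0.57 for the 8 genes, while their SG and TNFSG columns lie between 0.44 and 1.42; MFN1, MED1 and the DNAJC25 and GNG10 locus are negative in both targeted columns.

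Among the 8 genes themselves, the 28 pairwise correlations over 12 libraries ranged from 0.637 (UBE2L6 with NGDN) to 0.979 (SEC11A with NEK9), with a median of 0.911. After the group means were removed they ranged from -0.69 to 0.75 with a median of -0.09, and 12 of 28 were above 0. Within groups, the correlations thus fell on both sides of 0. The 8 genes lie on 6 chromosomes (1, 11, 14, 15, 16 and 19, with pairs on 1 and 14), and their 16 nearest tested protein-coding neighbours gave 0 calls in either comparison of targeted with mock transfection. The medians of those neighbours were 0.01 and -0.05 log2 units, and 15 of 16 lay between -0.36 and 0.26 in both. The exception was ZNF592 beside SEC11A, with 2.52 ± 0.84 log2 units in TNFSG against TNF (limma adjusted p = 0.391).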

How the data were processed

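An Illumina HiSeq gave single reads of 50 bases from RNA of K562 cells, per the labels' protocols. The authors deposited 1 table of FPKM values with a column for each of the 12 libraries, made with Bowtie2 2.2.9, TopHat2 2.0.14, Cufflinks and the build hg38, per the submitters' processing notes. The Cufflinks version, the annotation and the strand setting are not stated in these sources. No scaling between libraries was added to the deposited FPKM, and absolute depth is unknown, which leaves counting error unquantified.

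Values were taken as log2(FPKM + 1), so fold changes of low loci are understated. Loci that reached 1 FPKM in 3 or more libraries were fitted with limma 3.58.1 (R 4.3.3, eBayes with a trend, 1 mean per group, 12 libraries), two-sided, with Benjamini-Hochberg adjustment over 32866 loci and a threshold of 0.05. Ratios are of mean FPKM. The 8 genes and the gene lists were chosen with earlier results of these data known. The text names the 8 genes, their closest relatives, list members that passed the test, and the 5 loci most like and 3 most unlike the mean profile, plus exceptions stated in place. A list member that passed is not reported here. Gene positions came from GENCODE release 29. The main fit did not pair libraries by replicate number. Correlations of deviations from group means ranged from -0.019 to 0.128 over 18 same-number pairs of libraries, with 1 over 0.1. Over 36 different-number pairs they ranged from -0.105 to 0.0578. These ranges overlap and do not settle whether libraries with the same number belong together. Python 3.11.15, numpy 2.4.6, pandas 2.3.3, scipy 1.17.1 and matplotlib 3.10.9 were used. The alternatives were other pseudocounts (0.1 and 0.5), filters, scalings, a replicate block, limma without the trend, the compared groups alone, and each library left out.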

Additional observations from a re-analysis of the deposited data

How the results depend on the processing

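The 16 differences of the 8 genes between targeted and mock transfection kept their direction in all 336 alternative fits, at 0.36 to 1.05 log2 units, and 10 of the 336 moved by more than the residual SD. The genes were picked for these differences and their groups did not overlap, so leaving out 1 library cannot reverse a direction. The replicate block, the filters, limma without the trend and the compared groups alone leave each difference unchanged by design. The kept direction is therefore a description. The rise of UBE2L6 with TNF passed in all 20 alternatives (0.49 to 0.58 log2 units, limma adjusted p from 0.000578 to 0.0163), and none of the other 7 genes passed in any. Counts over all loci varied between settings. SG against control gave 56 loci (18 higher, 38 lower), against 115 with a filter at 5 FPKM, 16 without the trend, 12 with the compared groups alone and 10 to 49 with a library left out. TNFSG against TNF gave 42 (19 higher, 23 lower), against 97, 18, 2 and 3 to 25 under the same settings and 65 with median-ratio scaling. The split changed to 13 higher and 49 lower with quantile normalization in SG against control, and in TNFSG against TNF to 21 and 44 with median-ratio scaling and 17 and 46 with quantile normalization. The interaction gave 3 loci, against 12 with a pseudocount of 0.1 and 1 to 6 with a library left out. TNF averaged over the transfections gave 1441 loci, and 985 to 1377 with a library left out. The cause of these shifts was not tested, beyond fewer loci or libraries entering some fits.

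With the replicate number as a block, the counts were 71 for SG against control, 59 for TNFSG against TNF, 2104 for TNF averaged and 2 for the interaction, none of them over 1.5 times away from the fit without it. The block ended the calls of BICD2 in SG against control (limma adjusted p = 0.0549) and of STX6 and HEATR1 in TNFSG against TNF (0.0507 for each). The counts without the block were 56, 42, 1441 and 3 in the same order, so the first 3 rose with it. The block cannot change the sizes of the differences, because each replicate number occurs once in each group, as in SEC11A (0.83 log2 units in SG against control). Libraries of the same replicate share a number and a title letter (A, B or C), and what these stand for is not stated. Whether they were handled together cannot be told.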
